A study of Arabidopsis thaliana with 6 samples.

Results

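The genes described here are 10 iron genes of Arabidopsis thaliana, chosen by gene identifier from the 32833 genes of the deposited count table. They are the ferritin genes FER1 to FER4, the root uptake genes IRT1, FRO2 and AHA2, and FRO3, NAS4 and OPT3, which serve iron movement inside the plant. Messenger RNA came from whole, untreated 7-day-old seedlings grown on reduced-strength MS medium with 1% sucrose. The groups were the Col-0 wild type, with 3 libraries, and the gbpl3 mutant, also with 3, and the labels describe no transgene. The genotype labels of the mutant libraries carry the numbers 1 to 3, which were read as replicates of a single mutant, and a reading as allele names was not tested. The libraries are called WT1 to WT3 and MU1 to MU3 here, after their replicate numbers. GBPL3 belongs to the guanylate-binding-like proteins and, by the title of the series, to the nuclear basket, the side of the nuclear pore that faces the nucleus. The comparison of the genotypes asks which transcripts differ when GBPL3 is impaired. Nothing in the labels ties the libraries to separate plates or pools of plants, and p-values therefore reflect only how far these samples scatter, which may be a technical scatter.

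Iron is needed for photosynthesis, respiration and heme, but free iron drives the formation of damaging oxygen radicals. Arabidopsis roots acidify the soil with proton pumps, reduce ferric iron at the root surface and import ferrous iron, and they raise this machinery when iron is short. Inside the plant, iron travels bound to small molecules such as nicotianamine and citrate, and surplus iron is held in ferritin, a hollow protein shell in plastids whose genes are induced by iron excess and repressed by iron shortage.

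Total counts were 9530643 to 12911891 per library, and 3 counts corresponded to 0.232 to 0.307 CPM, the usual count scaled to library size, with library sizes here normalised for composition. GBPL3 (AT5G46070) had CPM values of 68.9, 67.9 and 66 in the wild-type libraries WT1 to WT3. The mutant libraries MU1 to MU3 held 14.8, 18.8 and 15.6 CPM, all below the wild-type values. Of 13 root marker genes, 2 were lower in gbpl3 and none higher, or 15.4% called against 10.7% of all genes tested. Their summed level was 305 to 358 CPM in wild type and 234 to 276 CPM in gbpl3. Without RCI3, a peroxidase gene that went from 67.7 to 27.6 CPM, the sums were 245 to 291 CPM and 211 to 242 CPM. The other root marker called, EIR1, lost its call without WT3 (adjusted p = 0.1) or MU3 (0.184), and 4 root markers were lower without WT1. Of 7 markers of green tissue, 3 were higher and none lower, or 42.9% called against 10.7% of all genes tested. Their sums were 41379.6 to 47536 CPM in wild type and 48109 to 56557 CPM in gbpl3. The green tissue count was 0 without WT1, WT3, MU1 or MU3, where LHCB1.3, LHCA1 and GLK1 had adjusted p of 0.0885 to 0.191. Whole seedlings mix organs, and in such samples fewer cells of a type and less RNA per cell cannot be told apart. The part of organ proportions in the results below was not tested. Over genes with at least 10 counts in a pair of libraries, WT1 and WT2 differed by a chi-square of 14.4 per degree of freedom, the largest of any pair within a genotype and above the 13.6, 10.5 and 9.98 of the pairs WT2 and MU1, WT2 and MU2, and WT3 and MU2. WT1 was also the lowest library for IRT1, FRO2 and AHA2.

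All 10 genes passed the filter on low counts. The ferritin genes FER1, FER3 and FER4 were lower in gbpl3 and FRO3, NAS4 and OPT3 were higher, while FER2, IRT1, FRO2 and AHA2 did not pass the test. Thus 6 of the 10 were called at an adjusted p under 0.05, against 10.7% of the 20677 genes tested. Over all genes, 6.06% were called higher and 4.69% lower. For 7 of the 10 genes the mutant libraries lay wholly above or wholly below those of wild type, as they did for 28.1% of the genes tested. The median log2 fold change was 0.09 over the 10 genes and 0.00 over all genes tested. Every log2 fold change below is gbpl3 minus wild type, and every adjusted p comes from the quasi-likelihood test of edgeR, adjusted by the Benjamini-Hochberg method over all genes tested.

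**Figure D1:**
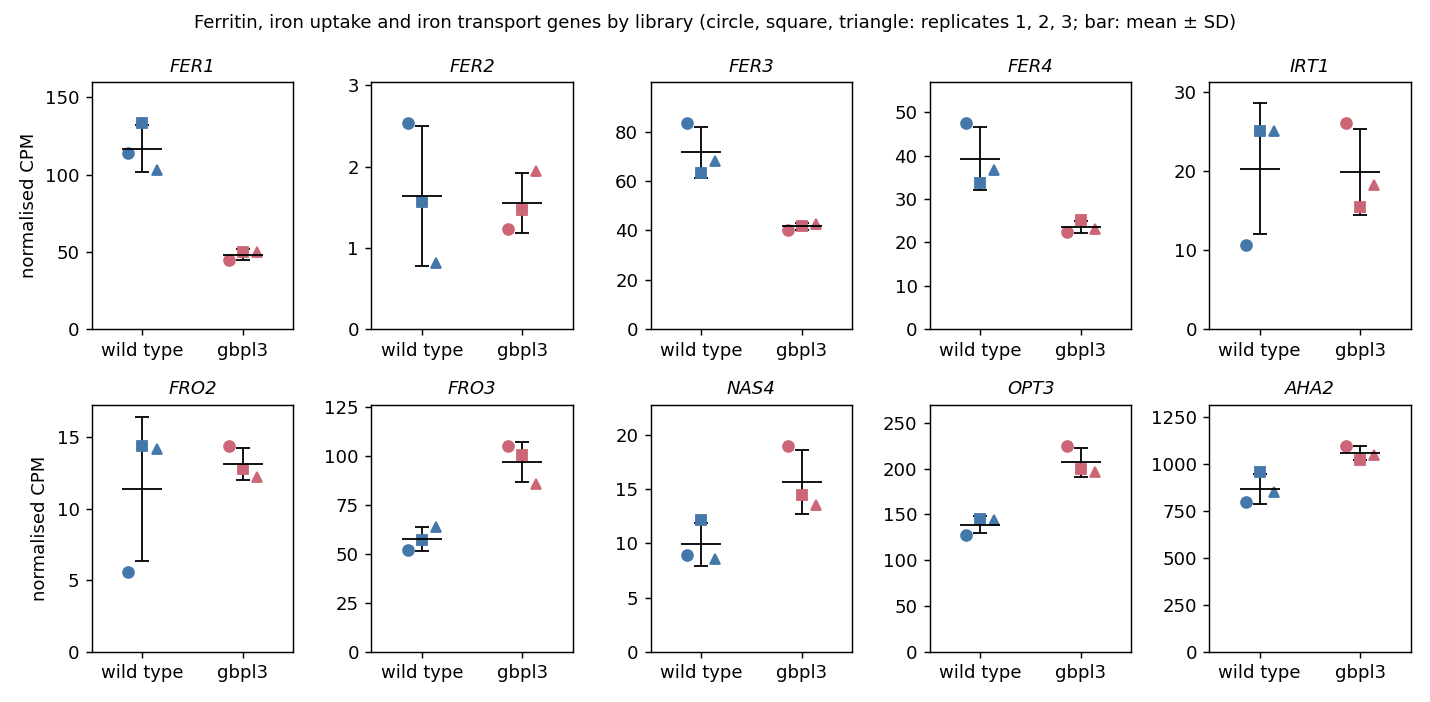
Normalised CPM of the 10 genes in each library, on linear axes from 0, with the mean and SD of 3 libraries per genotype as bars and replicates 1 to 3 as circle, square and triangle. FER1, FER3 and FER4 lie lower in all gbpl3 libraries, FRO3, NAS4, OPT3 and AHA2 lie higher, and IRT1 and FRO2 are lowest in WT1.

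Iron storage comes first. FER1 (AT5G01600), the ferritin gene best known for its induction by iron overload, is on chromosome 5 from 227953 to 230051 in the TAIR10.1 annotation, the source of all gene positions given here. It had 114, 133 and 103 CPM in the wild-type libraries and 44.5, 50.2 and 50.2 CPM in the mutant libraries. The lowest wild-type library thus held more than the highest mutant library, and the mutant libraries lay close together. FER1 fell 2.42-fold, with a log2 fold change of -1.28 (SE 0.11, adjusted p = 6.74e-07).

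FER3 (AT3G56090, chromosome 3, 20813904 to 20816035), which like FER1 is expressed in leaves, had 83.3, 63.3 and 68.3 CPM in wild type and 40.1, 41.9 and 42.8 CPM in gbpl3. It fell 1.72-fold (log2 fold change -0.79, SE 0.11, adjusted p = 0.000229). FER4 (AT2G40300, chromosome 2, 16831109 to 16833294), whose product is found in plastids and also in mitochondria, had 47.4, 33.8 and 36.8 CPM in wild type and 22.4, 25.2 and 23.1 CPM in gbpl3. Its fall was 1.67-fold (log2 fold change -0.74, SE 0.14, adjusted p = 0.00182). Neither gene overlapped between genotypes, and WT1 was the highest library for both, whereas FER1 was highest in WT2. FER4 shares 118 exon bases with its same-strand neighbour AT2G40290, which had 5138 counts over the 6 libraries against 2126 for FER4, so part of its level is uncertain. The falls of FER1, FER3 and FER4 passed the threshold in all 12 alternatives of scaling, filter, test, model and omitted library. Log2 fold changes with a library left out ranged from -1.36 to -1.17 for FER1, from -0.87 to -0.66 for FER3 and from -0.84 to -0.58 for FER4.

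FER2 (AT3G11050, chromosome 3, 3463477 to 3465506) is the ferritin of seeds, and it was barely detected in these seedlings. The wild-type libraries held 29, 19 and 8 raw counts and the mutant libraries 13, 19 and 21, and the genotypes overlapped. Its log2 fold change of -0.09 (SE 0.48, 95% interval -1.1 to 0.92, adjusted p = 0.944) leaves a change of up to about 1 log2 unit in either direction undetectable at this depth. Of 13 seed markers, 6 were tested and those 6 were higher in gbpl3, or 100% called against 10.7% of all genes tested. Their low wild-type counts mean that they could pass the filter mainly through the mutant, and the other 7 were not tested. The seed marker SESA2 overlapped between genotypes. Its call ended under DESeq2 (adjusted p = 0.382) and in edgeR without WT3 (0.0987), MU2 (0.281) or MU3 (0.0553). The summed seed marker level was 0.436 to 3.58 CPM in wild type and 25.8, 106 and 258 CPM in the mutant libraries, against 1.23, 1.47 and 1.95 CPM for FER2 in the same mutant libraries. FER2 shares 8 exon bases with AT3G11040.

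The 4 ferritin genes have 8 exons each in the longest transcript, and their exon unions are 1148 to 1421 bases long. The longest stretch identical between any pair was 32 bases, in FER3 and FER4, and the other pairs shared 16 to 17 bases, so reads that fit several ferritin genes equally well are limited to short stretches. The 250 bases before the annotated starts are shown for FER1 and FER3, which fell, and for OPT3, which rose, because a shared motif lies in the windows of FER3 and OPT3. They were read on the strand of the gene from the RefSeq TAIR10.1 genome, at chr5:230052-230301 (minus strand), chr3:20816036-20816285 (minus) and chr4:9250344-9250593 (minus). Capitals mark a G-box, CACGTG, the palindromic hexamer bound by many bHLH factors, among them regulators of the iron response.
FER1: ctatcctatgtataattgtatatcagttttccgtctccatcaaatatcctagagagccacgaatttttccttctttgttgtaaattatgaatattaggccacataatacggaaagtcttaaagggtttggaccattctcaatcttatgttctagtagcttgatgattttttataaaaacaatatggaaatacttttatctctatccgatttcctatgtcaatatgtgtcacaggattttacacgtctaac
FER3: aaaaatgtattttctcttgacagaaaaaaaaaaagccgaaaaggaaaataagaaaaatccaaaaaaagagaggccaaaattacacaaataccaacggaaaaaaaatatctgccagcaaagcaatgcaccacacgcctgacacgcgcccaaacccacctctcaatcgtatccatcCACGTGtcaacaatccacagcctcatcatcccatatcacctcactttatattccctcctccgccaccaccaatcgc
OPT3: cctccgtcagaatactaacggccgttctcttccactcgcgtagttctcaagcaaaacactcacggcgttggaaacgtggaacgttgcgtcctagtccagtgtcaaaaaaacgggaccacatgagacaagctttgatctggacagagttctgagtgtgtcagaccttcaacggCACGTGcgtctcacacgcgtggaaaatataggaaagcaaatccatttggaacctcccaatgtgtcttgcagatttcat
The G-box lies 76 to 71 bases before the start of FER3 and 78 to 73 bases before that of OPT3. These were the only matches in the 9 windows searched, and 6.49% of 27443 nuclear protein-coding genes searched in the same way had the motif. Neither CACGAG, the start of the iron-dependent regulatory sequence described in ferritin promoters, nor GNATATNC, the P1BS motif of the phosphate response, was found on either strand of the 9 windows, while 4.16% and 5.46% of the genes searched had them. Presence or absence of these letters describes these windows and nothing about binding. The G-box was thus found with a gene that fell and with a gene that rose.

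Uptake at the root surface did not pass the test in any of its 3 genes. IRT1 (AT4G19690, chromosome 4, 10707344 to 10709015) encodes the main ferrous iron importer of the root epidermis. It had 10.7, 25.1 and 25.1 CPM in the wild-type libraries and 26, 15.5 and 18.2 CPM in the mutant libraries. WT1 was the lowest of all libraries, and the genotypes overlapped. The log2 fold change was -0.03 (SE 0.24, 95% interval -0.55 to 0.48, adjusted p = 0.964), and -0.34 without WT1 (adjusted p = 0.288).

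FRO2 (AT1G01580, chromosome 1, 208995 to 213082) encodes the ferric chelate reductase that supplies IRT1 with ferrous iron. Its levels were 5.58, 14.4 and 14.2 CPM in wild type and 14.4, 12.8 and 12.2 CPM in gbpl3. As for IRT1, WT1 was lowest and the other wild-type libraries lay within or at the edge of the mutant range. The log2 fold change was 0.21 (95% interval -0.33 to 0.74, adjusted p = 0.692), and -0.13 without WT1 (adjusted p = 0.774). The sign of both uptake estimates therefore depended on which libraries were kept, and for neither gene was a call made under any of the 12 alternatives.

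AHA2 (AT4G30190, chromosome 4, 14770395 to 14776247) encodes a plasma membrane proton pump, the isoform known for acidifying the soil around iron-starved roots, and was the most abundant of the 10 genes per length. It had 797, 957 and 849.6 CPM in wild type and 1097, 1023 and 1050.2 CPM in gbpl3, so that all mutant libraries were higher. The 1.22-fold difference (log2 fold change 0.28, SE 0.10, 95% interval 0.07 to 0.5) missed the threshold after adjustment over all genes (adjusted p = 0.0807). DESeq2 called it (adjusted p = 0.024), as did edgeR without WT2 (log2 fold change 0.36, adjusted p = 0.0311), and adjusted p ran from 0.024 to 0.274 over the 12 alternatives. Without WT1 the log2 fold change was 0.23 (adjusted p = 0.185). AHA2 and AHA1 share an identical stretch of 59 bases, so a few reads may be split between them.

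FRO3, OPT3 and NAS4, the members set apart for iron movement inside the plant, were higher in gbpl3. Further genes of such movement, read from the lists below, went both ways. FRO3 (AT1G23020, chromosome 1, 8149868 to 8153796), a relative of FRO2 whose product is a mitochondrial ferric reductase, had 51.8, 57.1 and 63.7 CPM in wild type and 105, 100.3 and 85.4 CPM in gbpl3. Every mutant library exceeded every wild-type library, and the rise was 1.69-fold (log2 fold change 0.76, SE 0.11, adjusted p = 0.000269). FRO3 shares 24 exon bases with AT1G23010 on the opposite strand, which had 237 counts against 5240 for FRO3.

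OPT3 (AT4G16370, chromosome 4, 9247302 to 9250343) encodes a transporter that loads iron into the phloem and takes part in reporting the iron status of the shoot to the root. Its levels were 128, 145 and 144 CPM in wild type and 225, 199.8 and 196 CPM in gbpl3, a rise of 1.49-fold (log2 fold change 0.57, SE 0.10, adjusted p = 0.00123). The calls of FRO3 and OPT3 held under all 12 alternatives, with adjusted p up to 0.00347 and 0.0158. NAS4 (AT1G56430, chromosome 1, 21136835 to 21138277) encodes a nicotianamine synthase, which makes the chelator that carries iron between tissues. It had 8.9, 12.2 and 8.59 CPM in wild type and 19, 14.5 and 13.5 CPM in gbpl3, without overlap, and rose 1.58-fold (log2 fold change 0.66, SE 0.19, adjusted p = 0.0327). Of the 6 calls it was the least secure. The NAS4 call ended without WT1 (adjusted p = 0.0899), WT3 (0.134), MU1 (0.197) or MU3 (0.0531), where the log2 fold change stayed between 0.5 and 0.76.

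**Figure D2:**
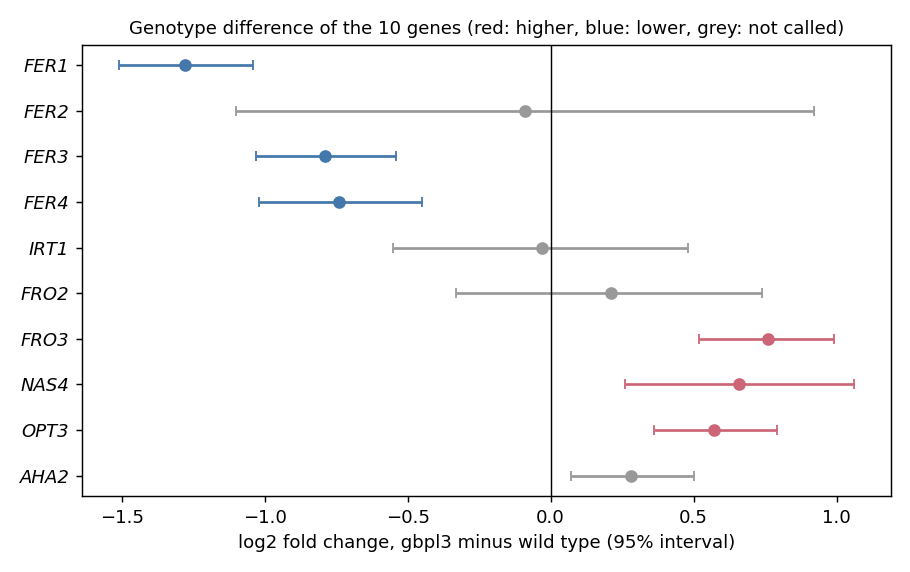
Log2 fold changes of the 10 genes, gbpl3 minus wild type, with 95% intervals from edgeR (3 libraries per genotype). FER1, FER3 and FER4 (blue) lie below 0, FRO3, NAS4 and OPT3 (red) lie above it, and the grey genes did not pass the adjusted threshold, with the widest interval for FER2.

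Storage was set against uptake within each library as the mean log2 CPM of FER1, FER3 and FER4 minus that of IRT1, FRO2 and AHA2. As both terms come from the same library, its scaling cancels almost fully. The difference was 1.06, -0.10 and -0.08 in the wild-type libraries against -1.12, -0.65 and -0.75 in the mutant libraries. All mutant libraries lay below all wild-type libraries, while WT1 lay about as far above the other wild-type libraries as the genotype means, 0.29 ± 0.66 and -0.84 ± 0.25 (SD, n = 3), lay apart. The storage term was 6.1 ± 0.14 in wild type and 5.18 ± 0.07 in gbpl3 (SD, n = 3), and the uptake term was 5.81 ± 0.52 and 6.02 ± 0.18. Most of the shift thus lay in the ferritin genes. The fitted mean log2 fold change of the storage genes minus that of the uptake genes was -1.09, and -0.76 without WT1. FER2, which was not called, is left out of these storage terms. With all 4 ferritins the fitted difference was -0.88, and with medians in place of means over the genes first named it was -0.99. These genes were picked for their roles with results known, so no p-value is given.

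**Figure D3:**
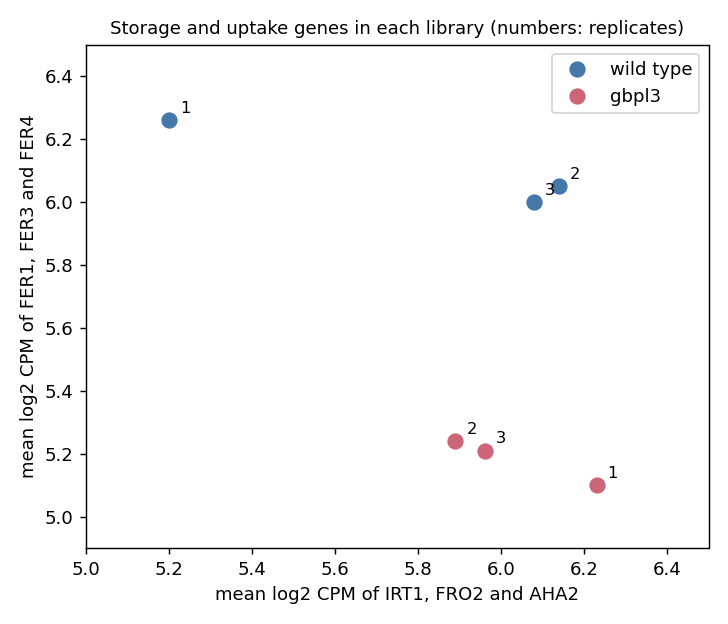
Mean log2 CPM of FER1, FER3 and FER4 (vertical) against that of IRT1, FRO2 and AHA2 (horizontal), 1 point per library with its replicate number. The wild-type libraries lie between 6 and 6.26 on the storage axis and the gbpl3 libraries between 5.1 and 5.24, while the uptake axis separates WT1, at 5.2, from the other 5 libraries.

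Counted per length, as CPM divided by the exon length in kilobases, the summed level of FER1, FER3 and FER4 was 184, 170.4 and 155 in the wild-type libraries against 80.6, 88.2 and 87.3 in the mutant ones. FER1 made up 43.9, 55 and 46.7% of that sum in the wild-type libraries, against 38.9, 40 and 40.5% in the mutant libraries. Its share was lower in every mutant library than in any wild-type library, and the difference between the ferritin genes was not tested. The order of the 10 genes in wild type was AHA2 (235 ± 22 per kilobase), FER1 (82.3 ± 10.8), FER3 (56.1 ± 8.14), OPT3 (51.4 ± 3.62), FER4 (31.4 ± 5.68), FRO3 (20.7 ± 2.14), IRT1 (13 ± 5.32), NAS4 (6.85 ± 1.37), FRO2 (4 ± 1.76) and FER2 (1.42 ± 0.748). Library ranges of neighbours overlapped for FER3 and OPT3, for IRT1 and NAS4 and for FRO2 and FER2.

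In gbpl3 the order per length was AHA2 (286 ± 10.05 per kilobase), OPT3 (76.6 ± 5.84), FRO3 (34.8 ± 3.74), FER1 (34 ± 2.32), FER3 (32.5 ± 1.09), FER4 (18.8 ± 1.16), IRT1 (12.7 ± 3.48), NAS4 (10.9 ± 2.05), FRO2 (4.6 ± 0.402) and FER2 (1.35 ± 0.321). FRO3, FER1 and FER3 followed each other with overlapping ranges, as did IRT1 and NAS4. FER1 and FER3 stood above OPT3 in the wild-type means, and both stood below it in every mutant library. The authors' deposited FPKM gave the same order in wild type. In gbpl3 it placed FRO3 below FER4 and IRT1 below NAS4. The deposited values imply a length of 5858 bases for FRO3, which has 7 annotated transcripts, against an exon union of 2785 bases, and 2261 against 1564 bases for IRT1. For the ferritin genes, NAS4 and OPT3, with 1 transcript each, both lengths were equal.

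**Figure D4:**
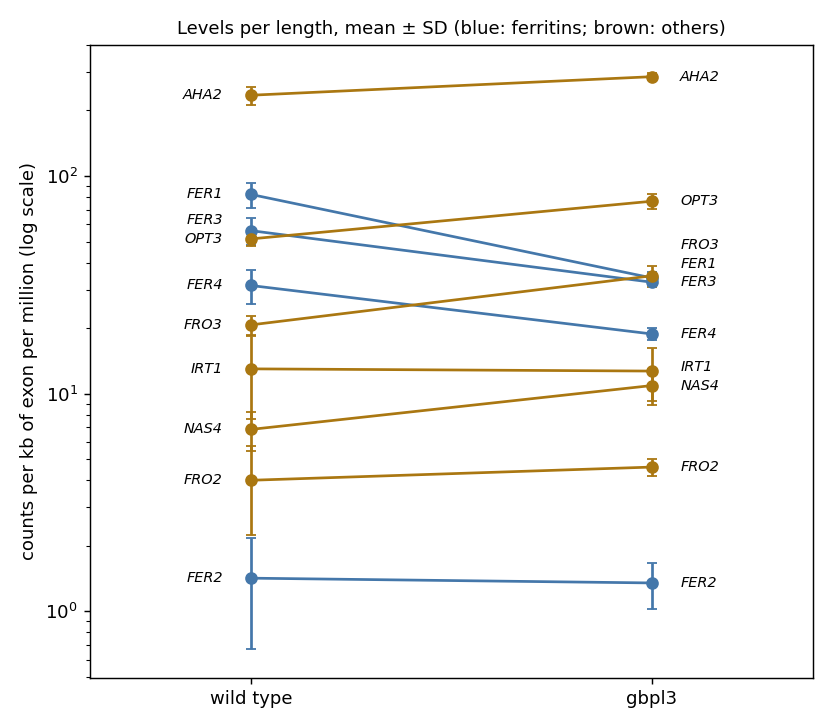
CPM per kilobase of exon (log axis) of the 10 genes in wild type and gbpl3, as mean and SD of 3 libraries. The blue lines of FER1 and FER3 descend below the rising line of OPT3 and that of FER4 below the rising line of FRO3, while IRT1 stands at 13 and 12.7.

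The wider setting was read from 7 lists of 71 genes by role, none of them among the 10, of which 6 lists hold iron genes and 1 holds enzymes against superoxide and peroxide. Of the 66 tested, 19 were higher in gbpl3 and 10 lower, or 43.9% called against 10.7% of all genes, and the median log2 fold change was 0.04. The enzyme list supplied 5 of the genes that were lower, and the 6 iron lists alone had 19 higher and 5 lower of 60 tested. Over the 7 lists, the number lower was 5 without WT3, 4 without MU1 and 6 without MU3. The 19 higher include IRT2, CYP82C4 and BHLH100, whose low wild-type counts mean that they could pass the filter mainly through the mutant. The 10 lower include NAS3, which with low mutant counts could pass mainly through wild type. The ferric reductases other than FRO2 and FRO3 had 3 of 5 tested members higher and none lower, or 60% called. FRO4 rose from 5.63 ± 1.49 to 19.5 ± 6.61 CPM (adjusted p = 9.91e-05), but it shares an identical stretch of 92 bases with its tandem copy FRO5, at 8.42 ± 1.13 and 6.87 ± 1.96 CPM, and the split of reads between them is uncertain. FRO8 rose 1.49-fold (adjusted p = 0.00468). FRO6, a leaf reductase, rose 1.52-fold (adjusted p = 0.0327) although the genotypes overlapped, and shares 205 identical bases with FRO7. FRO6 lost its call without WT1 (adjusted p = 0.0884), WT3 (0.145), MU1 (0.118) or MU3 (0.222).

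Of 21 tested metal carriers, 5 were higher and 3 lower, or 38.1% called against 10.7% of all genes tested. IRT2, the neighbour of IRT1 on chromosome 4, was counted 11, 10 and 7 times in the wild-type libraries and 82, 88 and 29 times in the mutant libraries, a rise of 6.82-fold (log2 fold change 2.77, SE 0.43, adjusted p = 0.000445). ZIF1, a vacuolar nicotianamine carrier gene, rose 1.79-fold (adjusted p = 0.00101), and YSL2, of the family that moves metal-nicotianamine complexes, rose 1.66-fold (adjusted p = 0.00235). NRAMP1, an importer gene of the plasma membrane, and NRAMP4, whose product releases iron from the vacuole, rose 1.39-fold and 1.38-fold (adjusted p = 0.0102 and 0.0131). NRAMP1 and YSL2 share 132 and 99 exon bases with a neighbour on the opposite strand. The NRAMP1 call ended without MU1 (adjusted p = 0.0547), and the NRAMP4 call ended without WT1 (0.0531) or MU3 (0.0652).

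The carriers that fell were VTL5, YSL1 and FRD3. VTL5, a vacuolar iron transporter-like gene, fell from 32.2 ± 3.3 to 16.5 ± 3.37 CPM (adjusted p = 0.000488). YSL1 fell 1.75-fold (adjusted p = 0.00339). FRD3, which encodes the citrate exporter that loads the xylem, fell 1.58-fold (adjusted p = 0.0397). That call ended under DESeq2 (adjusted p = 0.0582) and without WT2 (0.0817), WT3 (0.162), MU1 (0.17) or MU3 (0.12).

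The relatives of NAS4 moved both ways. NAS2 rose from 4.54 ± 1.18 to 12 ± 2.93 CPM (adjusted p = 0.00123), and it shares 49 identical bases with NAS1. NAS1 rose 1.48-fold (adjusted p = 0.0279) although the genotypes overlapped, with 37.2 CPM in WT1 and 34.7 CPM in MU2. NAS3 was counted 39, 20 and 21 times in the wild-type libraries and 1, 8 and 13 times in the mutant libraries (log2 fold change -1.88, SE 0.59, adjusted p = 0.0481). The NAS1 call ended without WT2 (adjusted p = 0.0735), WT3 (0.122), MU1 (0.18) or MU3 (0.114). The NAS3 call ended without WT1 (0.209), WT3 (0.105), MU1 (0.186) or MU2 (0.128), and without MU3 its log2 fold change was -2.64.

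Of the proton pump genes other than AHA2, AHA7 alone passed the test among 8 tested. That is 12.5% called, near the 10.7% of all genes tested. AHA7 rose from 7.84 ± 1.35 CPM to 20.1 ± 3.04 CPM in gbpl3 (log2 fold change 1.36, SE 0.18, adjusted p = 8.47e-05). It shares 134 exon bases with AT3G60328 on the opposite strand, which had 39 counts against 952. AHA1, the other abundant pump gene, stood at 561 ± 35.6 and 598 ± 13.9 CPM (adjusted p = 0.621).

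Coumarins are phenolics that roots secrete to mobilise ferric iron. Of their 5 genes, 2 were higher, or 40% called against 10.7% of all genes tested. F6'H1, the entry enzyme of the pathway, rose 1.65-fold (adjusted p = 0.00133). CYP82C4, which encodes an enzyme that oxidises coumarins further, was counted 0, 23 and 17 times in the wild-type libraries and 127, 83 and 90 times in the mutant libraries. Its log2 fold change of 2.88 (adjusted p = 0.00127) was 2.28 without WT1, and DESeq2 did not call it (adjusted p = 0.156). F6'H1 shares 67 exon bases with AT3G13620 on the opposite strand.

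Among 18 tested regulators of the iron response, 6 were higher and 1 lower, or 38.9% called against 10.7% of all genes tested. BTS, which encodes an iron-sensing ubiquitin ligase that restrains the response, rose from 114 ± 27.8 CPM to 204 ± 7.86 CPM in gbpl3 (log2 fold change 0.84, SE 0.13, adjusted p = 0.00058). The other 5 that rose were the bHLH genes BHLH38, BHLH39, BHLH100 and BHLH101 and the peptide gene IMA2, with fold changes of 2.48-fold, 2.97-fold, 9.09-fold, 4.6-fold and 2.81-fold (adjusted p = 0.0272, 0.00759, 2e-04, 1.4e-05 and 0.000156). BHLH100 was counted 2, 19 and 10 times in the wild-type libraries and 125, 64 and 95 times in the mutant libraries. It could thus pass the filter on low counts mainly through the mutant. BHLH101 shares 79 exon bases with AT5G04140, which had 68917 counts, BHLH38 shares 386 with AT3G56960, and IMA2 has an identical stretch of 59 bases in common with IMA1. FIT (AT2G28160), the regulator that activates IRT1 and FRO2, was the 1 that fell, from 8.88 ± 0.899 to 5.14 ± 0.144 CPM. Its call (adjusted p = 0.0245) ended without WT3 (0.0927), MU1 (0.0729), MU2 (0.0558) or MU3 (0.0906). The BHLH38 call ended without WT1 (log2 fold change 0.94, adjusted p = 0.0709), WT3 (0.109) or MU1 (0.188), and that of BHLH39 ended without MU1 (0.0596). Without WT2 the log2 fold changes of BHLH38 and BHLH100, 1.31 and 3.18, were 2.00 and 3.87, and without WT3 that of BHLH39, 1.57, was 2.28.

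Ferritin genes respond to oxidative stress as well as to iron, and a list of enzymes that remove superoxide and peroxide was read beside them. Of its 6 members, 5 were lower in gbpl3 and none higher, or 83.3% called against 10.7% of all genes tested. APX1, the main cytosolic ascorbate peroxidase gene, fell from 577 ± 99.2 CPM to 388 ± 13.6 CPM in gbpl3 (log2 fold change -0.57, SE 0.11, adjusted p = 0.00339). CSD2, a plastid copper/zinc superoxide dismutase gene, fell 1.56-fold (adjusted p = 0.00449). CSD1, its cytosolic counterpart, and FSD2 and FSD3, iron superoxide dismutase genes of plastids, fell 1.4-fold, 1.43-fold and 1.44-fold (adjusted p = 0.0231, 0.0241 and 0.0183). FSD1, the most abundant member, stood at 759 ± 214 and 768 ± 64.7 CPM (adjusted p = 0.965). The list had 3 members lower without WT1 or WT3 and 2 without MU1 or MU3. The calls lost were those of FSD2 (adjusted p = 0.0714 to 0.127), FSD3 (0.0916 to 0.12) and CSD1 (0.057 to 0.141). CSD1 shares 41 exon bases with AT1G08840 on the opposite strand.

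**Figure D5:**
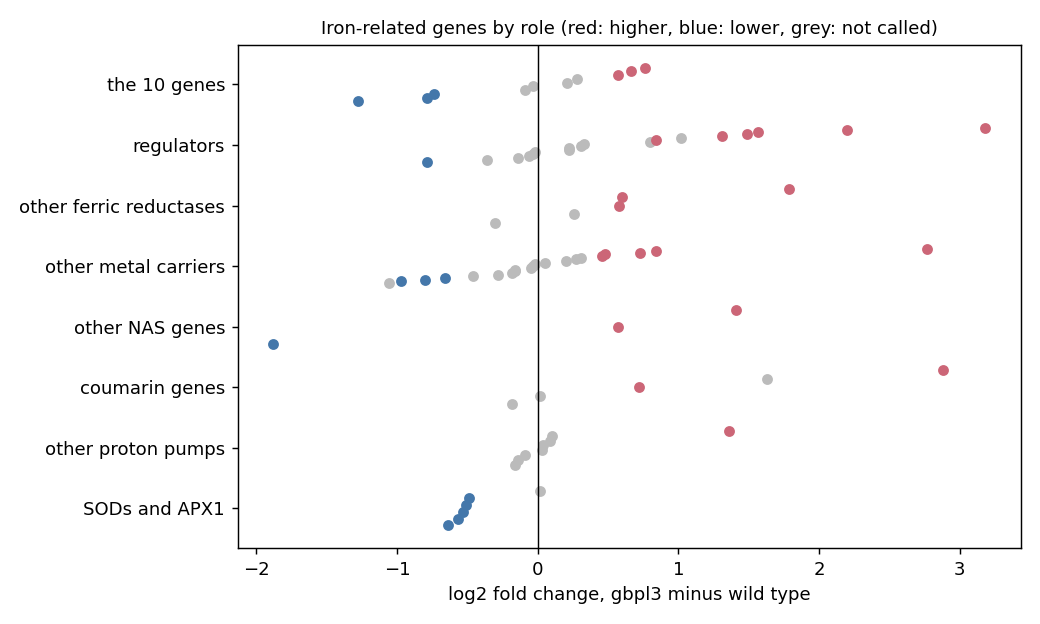
Log2 fold changes, gbpl3 minus wild type, of the 10 genes and of the tested members of 7 lists, 1 point per gene, ordered within each row. Of these lists, 6 hold iron genes and 1 holds enzymes against superoxide and peroxide. Red genes were higher, blue genes lower and grey genes not called, with 5 of 6 blue in the row of superoxide dismutases (SODs) and APX1 and both colours among the metal carriers.

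Profiles across the 6 libraries were compared by the Euclidean distance between log2 CPM values centred on each gene's mean, over 16006 other genes whose mean reached 5 CPM. The nearest to FER1 were EXPB1, a beta-expansin gene (distance 0.343), CYP81D11, a cytochrome P450 gene (0.39), NRT1.5, a nitrate transporter gene of the root vasculature (0.418), RH1, an RNA helicase gene (0.45), and MSRB7, a methionine sulfoxide reductase gene (0.461). Their log2 fold changes were -1.17 to -1.02, and that of FER1 was -1.28. CYP81D11 and NRT1.5 share 32 and 16 exon bases with a neighbour on the opposite strand. No other ferritin gene was among the 5.

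Of the 10 genes, FRO3 had the smallest adjusted p among those called that are not ferritins. Its nearest profiles were those of F6'H1 (distance 0.176), PRR2, a pinoresinol reductase gene (0.178), and AT4G18215 (0.186). Next came WRKY33, a transcription factor gene of pathogen defence (0.203), and AT5G37740 (0.214). F6'H1 is the coumarin gene named above, and it stood at 18.2 ± 1.38 and 29.9 ± 1.4 CPM. AT4G18215 shares 359 and 342 exon bases with its opposite-strand neighbours AT4G18210 and AT4G18220, which had 259 and 758 counts against 504. F6'H1 shares 67 with AT3G13620, which had 426 counts against 1630, and WRKY33 shares 26 with AT2G38480. The profiles of AT4G18215, F6'H1 and WRKY33 are therefore uncertain. These likenesses describe 6 libraries of both genotypes. Each of the 10 nearest genes was called in the direction of the gene it was compared with. That follows largely from the choice by profile and is no separate result.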

How the data were processed

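Messenger RNA libraries of 3 wild-type and 3 gbpl3 samples, strand-specific per the labels' protocols, were grouped by title. The gbpl3 genotype labels carry the numbers 1 to 3, taken as replicate numbers, as the design describes triplicates, although they could be read as allele names. The authors deposited raw counts per gene and FPKM values. HISAT2 2.0.4, HTSeq 0.6.1p1 and TAIR10 are named in the submitters' processing notes. How strand and multiply matching reads were handled is not given in sources used here. The deposited FPKM served for levels only. GBPL3 was taken to be AT5G46070 from background knowledge.

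The main test was the quasi-likelihood F test of edgeR 4.0.16 in R 4.3.3 on genes passing filterByExpr, with TMM scaling, Benjamini-Hochberg adjustment and a threshold of 0.05. SE was the size of the log2 fold change divided by the square root of F, and 95% intervals used its t quantile. Log2 CPM used a prior count of 2. Levels per length used the exon union of the TAIR10.1 annotation, which also gave positions, overlaps and upstream sequences (RefSeq). Upstream windows were searched for 9 of the members, and 1 window is not reported here. No libraries were duplicates, since chi-square divided by its degrees of freedom was 4.97 to 14.4 for pairs of the same genotype and 9.98 to 34.6 for pairs of different genotypes, where sampling noise gives about 1. On counts simulated for this comparison over 20677 genes, the test recovered 95% of 100 genes changed by 1 log2 unit and 100% of 100 changed by 2, with 14 false calls. The changed genes were drawn only from those above a floor of mean CPM, so the recovery does not cover genes of few counts such as FER2. Changes under 1 log2 unit were not simulated. The 12 alternatives were scaling by RLE or upper quartile, testing by DESeq2 1.42.0, keeping genes with any count, requiring 1 CPM in 3 libraries, a replicate block, and leaving out each library.

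The members, lists and tests were chosen with earlier results of these data known. The text names the 10 members, GBPL3 and the called list members with the smallest adjusted p (up to 4 per list). It also names members needed to state counts of 5 or fewer. The 5 nearest profiles are given for FER1 and for the leading called member outside the ferritins. BHLH38, BHLH39, FSD1, AHA1 and FRO5 were added after their values were seen.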

Additional observations from a re-analysis of the deposited data

How the results depend on the processing

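The calls of FER1, FER3, FER4, FRO3 and OPT3, and the absence of a call for FER2, IRT1 and FRO2, were the same under all 12 alternatives, and none of the results reversed a called direction. The log2 fold change of NAS4 was 0.66 under the replicate block (adjusted p = 0.059) and 0.50 to 0.84 with a library left out, and that of AHA2 was 0.28 by DESeq2 (adjusted p = 0.024) and 0.23 to 0.36 with a library left out. With a library left out, 629 to 1443 genes were called higher and 320 to 1238 lower, and 4 to 9 members of the 7 lists lower, against 1253, 969 and 10 with all libraries. The replicate block gave 916 genes higher, 618 lower, 6 list members lower, no green tissue marker higher and 1 root marker lower. With the deposited FPKM, 6 of the 20 ranks of the order per length changed. Same-numbered libraries of the genotypes deviated with correlations of -0.05, -0.06 and 0.04 over 20677 genes, so the numbers do not pair them, and no library but gbpl3 replicate 3 and wild-type replicate 3 correlated best with its own number. Of the genes named from the members and the 7 lists, those whose calls ended under the block were NAS4, FIT, BHLH38, FRO6, FRD3, NAS3 and FSD2 (adjusted p = 0.0503 to 0.0994). Of 1114 further comparisons over single list genes, 1028 kept their side of the threshold, 68 fell below it and 18 rose above it. The causes of these changes were not tested. Fits that leave 1 library out also hold fewer libraries, and the part of that in the lost calls was not tested either. Depth limited FER2 most, with 109 counts in all.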
